A study of Mus musculus with 2 samples.

Results

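The genes described here are 56 interleukin and interferon receptor chains, Janus kinases, STAT factors and SOCS inhibitors in P5424, a T-cell line derived from immature mouse thymocytes. They were chosen by name, as the array probes other than controls whose gene name is one of the 56, and all 56 were present. They carry 84 of the 55681 probes and 102 spots, and they are 56 of the 19796 gene names on the array that equal a RefSeq symbol. The series consists of 2 one-colour Agilent arrays with 60-base probes, replicate 1 and replicate 2. Both samples were untreated P5424 cells, a single line that per the labels lacks Rag2 (a recombinase subunit) and P53, cultured in RPMI1640 to which 2-mercaptoethanol (0.1 mM) and fetal bovine serum (10%) had been added. There was no second genotype or treatment, so no group could be tested against another and every value is a description of these arrays. Nothing in the labels tells separate cultures from repeat hybridisations, and both arrays share 1 slide, so the spread between the replicates may be a technical one.

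Most interleukin and interferon receptors are pairs of different chains, and a cell usually senses a cytokine through chains that bind and signal together. A receptor is called complete here only because each of its listed chains was detected as RNA, and sensing was not measured. Janus kinases sit on the inner tails of these chains and phosphorylate STAT factors, which enter the nucleus and switch on target genes, among them the SOCS genes whose products shut the same pathway down. Interleukin 7 is the best known of these signals in early thymocytes, and its receptor is lowered for a time around the CD4 and CD8 double-positive stage. Receptors of the interleukin 1 and interleukin 17 families signal through adaptor proteins and not through Janus kinases.

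A gene was called detected when the scanner software marked at least 1 of its probes well above background on both arrays, and a gene with no such probe is called not well above background, without a level. Signals are in intensity units of the scanner. Values are log2 signals minus the 75th percentile of the array (324 units on replicate 1 and 299 on replicate 2), so that 0 is that percentile, with the mean ± SD over both arrays (n = 2). On replicate 1, 42.5% of all probes were well above background, and on replicate 2 it was 41.2%. The 308 negative control spots had medians of 6.55 and 7.504 units. The highest of them read 15.1 units on replicate 1 and 101 on replicate 2, where the next highest read 17.6. No spot was saturated.

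The following stretches show what was measured for the chains and signalling genes on which the results turn: the detected chains Il2rg and Ifngr1, the undetected chains Il2rb, Il7r, Il13ra1 and Il23r that leave a receptor incomplete, and the undetected signalling genes Stat4 and Cish. Each is the first 30 bases of the 60-base probe, 5′ to 3′, as the array files give it, in lower case because no letter is singled out.
Il2rg: catcaatcctttgatggaacctcaaagtcc
Il2rb: gtctattctggggtgggtttttctgtgaag
Il7r: atcaatcaactatgtttggatccagggaat
Il13ra1: taagtggtcctgtcaattctgtgttttatt
Il23r: cctacttctgtcattaaattgtacagtaca
Ifngr1: atggaacatgttggtggaagcttgtacaat
Stat4: agaaggaagcagatgaaactggagagtgtt
Cish: actttagaaaacaagtgttagaacacaaga
On mm9, the build of the array files, these probes lie at chrX:98460130-98460189 (Il2rg, minus strand), chr15:78311109-78311168 (Il2rb, minus), chr15:9435976-9436035 (Il7r, minus), chrX:33710154-33710213 (Il13ra1, plus), chr6:67372966-67373025 (Il23r, minus), chr10:19329923-19329982 (Ifngr1, plus), chr1:52163802-52163861 (Stat4, plus) and chr9:107204196-107204255 (Cish, plus). Whether each position is coding or lies in a UTR was not analysed here.

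Of the 56 genes, 41 were detected on both arrays (73.2%) and 15 on neither, and none was seen on 1 array alone. The background was 51.6% of all 19796 genes. Genes with several probes are detected more often, so the counts were also split by probe number. With 1 probe, 26 of 37 members were detected (70.3%) beside 44.8% of all such genes, and with 2 or more probes it was 15 of 19 (78.9%) beside 66.6%. The receptor chains had 25 of 38 detected (65.8%) and the kinases, STAT factors and SOCS genes 16 of 18 (88.9%). In RNA from a whole culture, fewer cells that transcribe a gene and less RNA per cell cannot be told apart. The median value of the 41 detected members was 1.25, beside 2.16 for all 10221 detected genes.

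**Figure D1:**
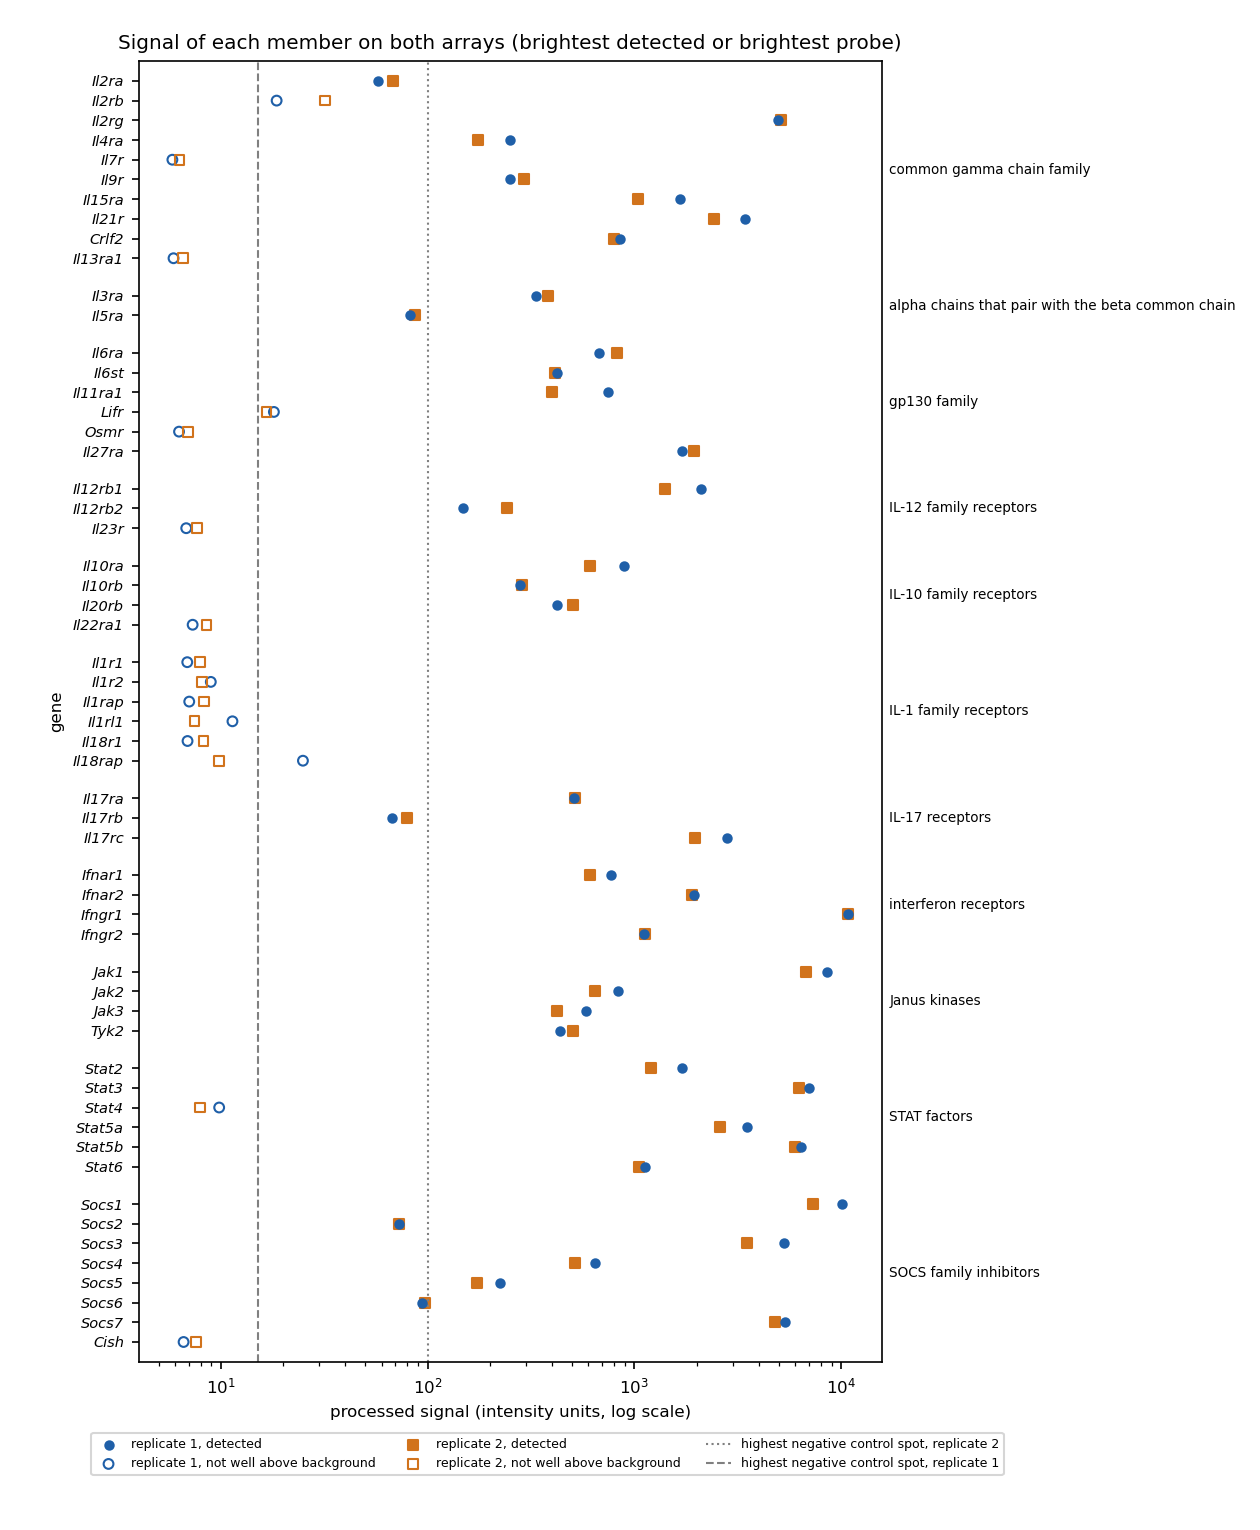
Processed signal (x axis, intensity units, log scale) of all 56 genes (y axis, by role) on replicate 1 (circles) and replicate 2 (squares), filled where detected and open where not well above background, with the highest negative control spot of each array as a line. The 6 interleukin 1 family chains are all open, the 4 interferon receptor chains are all filled, and Il2ra, Il5ra, Il17rb, Socs2 and Socs6 lie left of the highest control spot of replicate 2.

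Of 31 receptors assembled from known chain pairings, 12 had every chain detected and 19 lacked at least 1. Receptors share chains, so the call of 1 chain, such as Il2rb or Il7r, can decide several of them. The complete ones were the receptors for interleukins 9, 21, 6, 11, 27, 12, 10 and 25, for interleukin 17A and 17F, the type I receptor for interleukin 4, and both the type I and the type II interferon receptor. Of the 19 incomplete ones, 15 had some of their chains, and 4 had none (the receptors for interleukins 31, 1, 33 and 18).

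**Figure D2:**
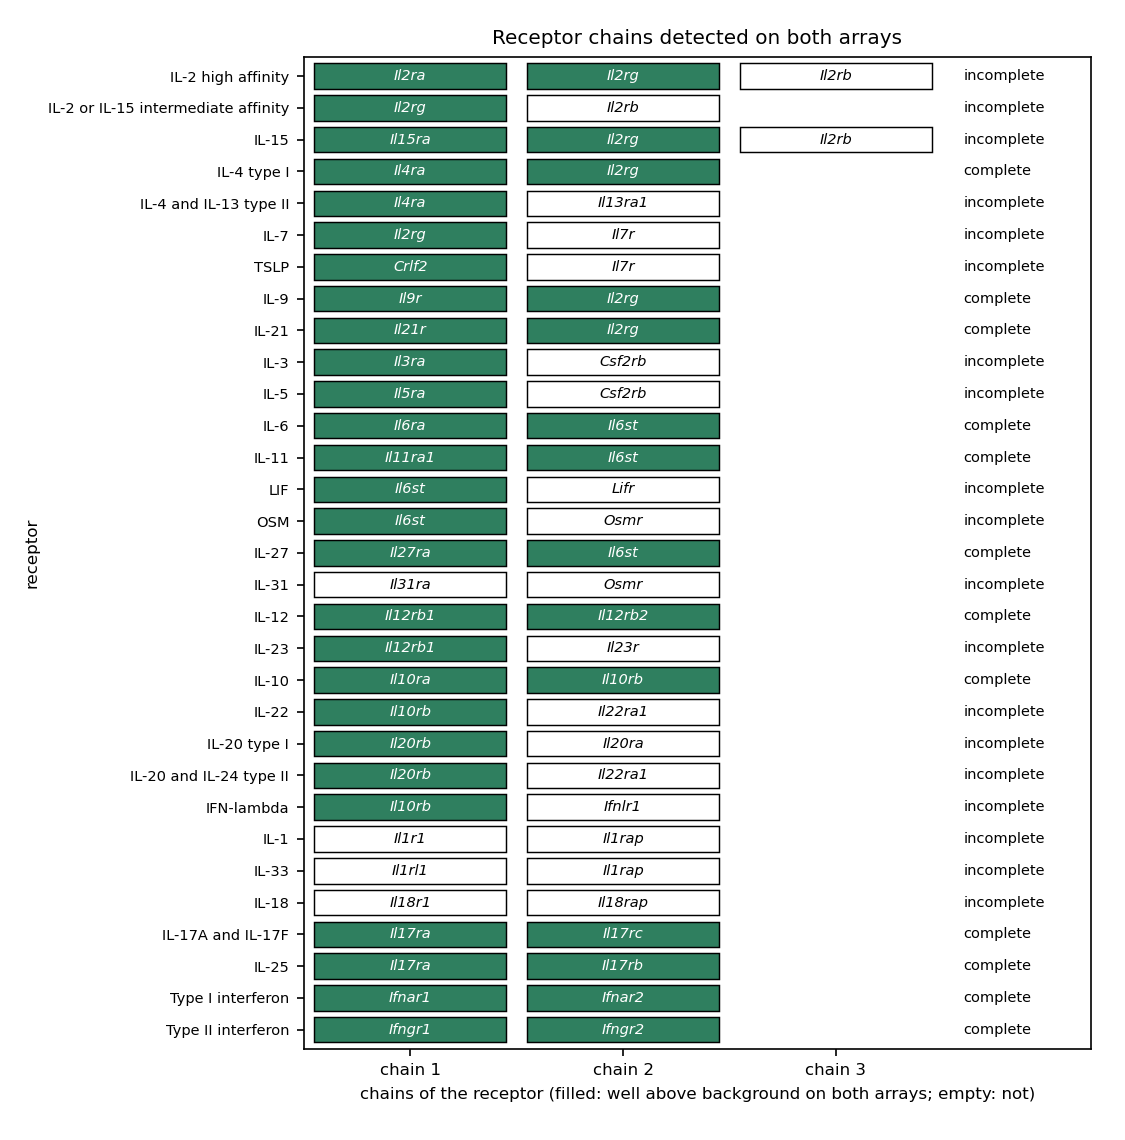
The 31 receptors (y axis) with their chains as boxes (x axis), green where the chain was detected on both arrays and empty where it was not. The 12 complete receptors have green boxes throughout, and Il2rb and Il7r each recur among the empty boxes.

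In the common gamma chain family, 7 of 10 chains were detected. Crlf2 and Il13ra1 were grouped here, although their receptors are built with Il7r and Il4ra and without the gamma chain. The shared gamma chain Il2rg read 4938 units on replicate 1 and 5126 on replicate 2 (4.01 ± 0.12). Both arrays thus showed it far above every control spot. Il21r, the partner that makes up the interleukin 21 receptor, read 3419 and 2442 (3.21 ± 0.26). Il15ra, the high-affinity interleukin 15 chain, read 1659 and 1046 (2.08 ± 0.39), with replicate 1 the higher. Il9r, the interleukin 9 chain, read 250 and 292 (-0.20 ± 0.24), and Il4ra, which binds interleukin 4, read 252 and 176 (-0.57 ± 0.28). Crlf2, the chain of the receptor for thymic stromal lymphopoietin (TSLP), read 849 and 794 (1.40 ± 0.015). Il2ra, or CD25, which raises the affinity of the interleukin 2 receptor, was at 57.9 and 68.3 (-2.31 ± 0.25), the latter under the highest control spot. Another background correction, normexp, put its value at -1.55.

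For several cytokines of this group, 1 chain of the receptor was not detected. Il2rb, the signalling chain that interleukins 2 and 15 share, was not well above background, with signals of 18.6 and 31.8 units. The high-affinity and intermediate-affinity interleukin 2 receptors and the interleukin 15 receptor therefore lacked 1 chain each, although Il2ra, Il15ra and Il2rg were detected. The Il2rb signals did pass the software's less strict flag, a positive and significant signal, on both arrays. Il7r, which binds interleukin 7 and is also the second chain for TSLP, read 5.83 and 6.32, under the median control spot of each array, so both of its receptors lacked it. Il13ra1, which joins Il4ra in the type II receptor for interleukins 4 and 13, read 5.91 and 6.54. Interleukin 4 thus had its type I receptor complete and its type II receptor without the second chain.

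Il3ra and Il5ra, the binding chains for interleukins 3 and 5, were both detected. Il3ra read 335 and 382 (0.20 ± 0.22) and Il5ra 82.5 and 86.6 (-1.88 ± 0.13). Their signalling partner is Csf2rb, the common beta chain, which is not among the 56 genes. It was well above background on replicate 2 alone (22.2 and 43.8 units), so that both receptors were incomplete, and both became complete when replicate 2 stood alone. Csf2rb2, the related chain that pairs with Il3ra in the mouse, was detected on neither array (14.7 and 14.2).

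Receptors built on gp130, the signalling chain encoded by Il6st, were complete for 3 cytokines and lacked a chain for 2. Il6st read 423 and 415 (0.43 ± 0.065), nearly the same on both arrays. Il27ra, the interleukin 27 chain, read 1697 and 1947 (2.55 ± 0.22), and Il6ra, the interleukin 6 chain, 674 and 825 (1.26 ± 0.29). Il11ra1, the interleukin 11 chain, read 750 and 400 (0.81 ± 0.56), with replicate 1 clearly higher. Lifr, the receptor chain for leukaemia inhibitory factor, failed the criterion with each of its 3 probes, the brightest at 18.1 and 16.7. Osmr, the oncostatin M chain, read 6.28 and 6.96. The remaining partner, Il31ra of the interleukin 31 receptor, read 10.8 and 6.87, so this receptor had neither chain.

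The interleukin 12 receptor was complete and the interleukin 23 receptor was not. Il12rb1, the chain they share, read 2105 and 1407 (2.47 ± 0.33), and Il12rb2, the second interleukin 12 chain, 149 and 242 (-0.72 ± 0.58). Il12rb2 was higher on replicate 2 with each of its 2 probes (116 and 198 for the other). Il23r was not well above background, at 6.81 and 7.66. Stat4, the factor that the interleukin 12 receptor activates, was not well above background either (9.82 and 7.96), so the complete receptor stood beside a downstream factor that was not detected.

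In the interleukin 10 family, Il10ra read 897 and 608 (1.25 ± 0.31) and Il10rb, its partner and a shared chain of the family, 279 and 288 (-0.13 ± 0.12). The interleukin 10 receptor was complete. Il20rb, the shared chain for interleukins 20 and 24, read 423 and 508 (0.57 ± 0.27), while neither chain it pairs with was well above background: Il22ra1 at 7.31 and 8.53, and Il20ra, outside the 56 genes, at 7.03 and 8.01. The receptors for interleukin 22 and for lambda interferons likewise had Il10rb without Il22ra1 or Ifnlr1 (6.40 and 7.27, under its older name Il28ra on the array).

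No chain of the interleukin 1 family was detected. Il1r1 and its decoy relative Il1r2 read 6.89 and 8.95 on replicate 1, and 7.96 and 8.10 on replicate 2. Il1rap, the accessory chain that interleukins 1 and 33 share, failed it with each of 3 probes, as did Il1rl1, the interleukin 33 chain, with 3 and Il18r1, the interleukin 18 chain, with 2. These 8 probes read from 6.03 to 11.4 units on replicate 1 and from 6.73 to 8.35 on replicate 2. Il18rap, the second interleukin 18 chain, read 25.0 and 9.81, and it passed the less strict flag on both arrays. Of a list of 8 signalling genes of the interleukin 1, 18 and 17 receptors together, 7 were detected (87.5%, beside 51.6% of all genes), among them the adaptors and kinases Myd88 (874 and 772 units), Irak1 (1938 and 1559), Irak2 (3161 and 4312) and Traf6 (2012 and 1523), and Irak4 was well above background on 1 array. Sigirr, an inhibitory relative of the interleukin 1 receptors and no adaptor, was another of the 7 (2327 and 1991), named here after its value was seen.

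All 3 interleukin 17 receptor chains were detected. Il17ra, the shared chain, read 510.0 and 519 (0.73 ± 0.10), and Il17rc, which joins it for interleukins 17A and 17F, 2809 and 1961 (2.92 ± 0.28). Il17rb, which joins it for interleukin 25, was near the limit at 67.7 and 80.0 (-2.08 ± 0.25), below the highest control spot of replicate 2, and at -1.26 with normexp. Il17re, a chain outside the 56 genes that binds interleukin 17C, read 6918 and 7181 (4.50 ± 0.12), and Il17rd was not well above background (25.1 and 12.01). A receptor for interleukin 17C was not among the 31 assembled, so it is counted neither as complete nor as incomplete.

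All 4 interferon receptor chains were detected, and both receptors were complete. Ifngr1, the binding chain for interferon gamma, read 10830 and 10790 units (5.12 ± 0.080), nearly the same on both arrays. Ifngr2, its signalling partner, read 1119 and 1121 (1.85 ± 0.085). For type I interferon, Ifnar1 read 775 and 608 (1.14 ± 0.17) and Ifnar2 1948 and 1899 (2.63 ± 0.058). Of 18 genes of interferon signalling and response, 16 were detected (88.9%, beside 51.6% of all genes). They included Irf9, the partner of STAT factors in the type I response (1206 and 853), Irf1 (8426 and 8765), the ubiquitin-like Isg15 (24990 and 30480) and Ifit1 (326 and 355), and Irf7 and Ifit3 were well above background on 1 array.

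All 4 Janus kinases were detected. Jak1, used by many of these receptors, read 8581 and 6783 units (4.62 ± 0.16). Jak2, used for interferon gamma and the interleukin 12 family, read 836 and 648 (1.24 ± 0.17). Jak3, which binds the gamma chain, read 583 and 424 (0.68 ± 0.24) and was detected with both of its probes. These 3 kinases were higher on replicate 1 with the probes given, although the other Jak3 probe had nearly the same value on both arrays (0.654 and 0.656). Tyk2, the kinase of the type I interferon and interleukin 12 receptors, was higher on replicate 2 (439 and 504, 0.59 ± 0.23). The kinase was therefore detected for every complete receptor that uses one.

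Of 6 STAT factors, 5 were detected. Stat3, activated through gp130 and by interleukins 10 and 21, read 7001 and 6269 units (4.41 ± 0.029) on a probe with 10 spots, all of them well above background on both arrays. Its spots scattered with an SD of 0.061 on replicate 1 and 0.033 on replicate 2 (log2), which is about the size of the difference between the arrays. Stat5a and Stat5b, the factors of the gamma chain cytokines, read 3528 and 2608 (3.29 ± 0.22) and 6398 and 5981 (4.31 ± 0.015). Stat6, the factor of interleukin 4, read 1125 and 1057 (1.81 ± 0.020), and Stat2, which acts in the type I interferon response, 1698 and 1210 (2.20 ± 0.26). The sixth, Stat4, was not.

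Of 8 SOCS family genes, 7 were detected. Socs1, which inhibits Janus kinases and restrains interferon gamma and gamma chain signals, read 10110 and 7295 units (4.79 ± 0.25). Socs3, which binds gp130, read 5311 and 3492 (3.79 ± 0.34), and Socs7 5344 and 4772 (4.02 ± 0.032). Both Socs1 and Socs3 were higher on replicate 1. Socs4 read 648 and 519 (0.90 ± 0.14) and Socs5 225 and 173 (-0.66 ± 0.18). Socs2 (72.9 and 72.7) and Socs6 (94.2 and 97.01) were detected below the highest control spot of replicate 2. Cish, a rapid target of STAT5, was not well above background at 6.61 and 7.61, near the median control spot, although both STAT5 genes were detected.

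Genes that the STAT factors regulate were detected in part, and the lists of targets include some members already described above. Of 15 targets of STAT5 and STAT3, 11 were detected (73.3%), including Socs3, the kinases Pim1 (298 and 372) and Pim2 (128 and 168), and Socs2. Junb (49.7 and 79.1), named after its value was seen, was detected below the highest control spot of replicate 2, like Socs2. The 4 that were not well above background were Cish, the cyclin Ccnd2 (19.4 and 8.32), the cytokine gene Osm (6.86 and 13.0) and Fos (11.03 and 11.96). Of 9 targets of STAT6 and STAT4, 5 were detected (55.6%): Gata3 (5501 and 5509), Tbx21 (701 and 621), Il4ra, Ifng (77.1 and 212) and Fcer2a (38.0 and 47.6). Il18r1, Il18rap, Arg1 and Ccl17 were not, and Fcer2a lay below the highest control spot of replicate 2. Of 13 phosphatases and other inhibitors of the pathway, 12 were detected (92.3%), including Ptpn1 (2209 and 2241), Ptpn2 (4659 and 4088), Ptpn6 (3382 and 3306) and Ptpn11 (11200 and 7988), and Pias3 was well above background on 1 array. These shares stand beside the same 51.6% of all genes, and the share of the STAT6 and STAT4 targets was close to it.

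Few ligand genes were detected, 4 of 35 (11.4%, beside 51.6% of all genes and 44.8% of those with 1 probe). They were Il27 (148 and 154 units), which encodes 1 subunit of interleukin 27, Il10 (99.6 and 79.4), Il17f (70.8 and 73.8) and Ifng. Il10 and Il17f lay below the highest control spot of replicate 2. Ifng was more than 2-fold higher on replicate 2, whereas the other 3 differed less. Il11 and Il22 were well above background on 1 array, and Il2, Il4 and Il7 were among the 29 detected on neither. Of 12 partner chains and soluble binding proteins outside the 56 genes, 2 were detected (16.7%, beside the same 51.6%). These were Il17re and Il18bp, which binds interleukin 18 (189 and 131). Csf2rb was seen on 1 array, and the other 9 on neither.

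All 13 T-lineage markers were detected, among them Cd3d (151500 and 147400 units) and Cd247 (895 and 1362). Markers of other cells were present in part, beside 51.6% of all genes. For B cells 1 of 6 was detected (Cd79a, 51.3 and 42.5). For myeloid cells it was 3 of 6 (Csf1r, 77.6 and 133, Itgam, 6292 and 6868, and Cd14, 44.8 and 47.0). For natural killer cells it was 2 of 5 (Gzma, 83360 and 76080, and Prf1, 150 and 132). For stroma it was 2 of 6 (Pdgfrb, 1573 and 1557, and Pecam1, 443 and 447). Cd79a and Cd14 lay below the highest control spot of replicate 2. Lyz2, Ncr1 and Foxn1 were not well above background. With 1 group, these markers do not vary between conditions, and their part in the receptor signals was not tested.

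Of the 84 probes, 55 were detected, and probes of 1 gene did not always agree. Among the 19 members with several probes, 10 had all of them detected, 4 had none (Lifr, Il1rap, Il1rl1 and Il18r1) and 5 had some. In Il4ra, the probe at base 5027 of the transcript was detected and that at base 466 was not (18.1 and 18.7 units). In Il17rb, the probe at base 2001 was detected and that at base 220 was not (20.6 and 26.6). Both of these receptor chains were thus read by the probe that lies farther along the transcript. In Socs2, the probes at bases 818 and 1099 were detected, while a probe with 10 spots at base 1220 had 6 spots well above background on replicate 1 and 4 on replicate 2, and the remaining probe, on another transcript model, read 6.202 and 6.999. Socs6 was detected with 2 of 4 probes, and Il20rb with 1 of 2, its undetected probe (7.24 and 8.50) belonging to another transcript model. Probes that were all detected could still read very different signals. The second Stat3 probe read 60.14 and 99.99 units, beside 7001 and 6269 for the one given above. Ifnar1 had further probes at 41.3 and 36.7 and at 96.3 and 128, Stat6 at 41.4 and 44.3 and at 191 and 292, and Il15ra 1 that gave 70.3 units on replicate 1. The levels of these genes therefore depend on the choice of the brightest probe. With the mean of all detected probes, Stat3 was at 1.20 in place of 4.41, Stat6 at -0.48 in place of 1.81, Ifnar1 at -1.11 in place of 1.14 and Il15ra at -0.11 in place of 2.08. Il12rb1 (0.51), Il17rc (1.43) and Il9r (-1.33) also came out lower by over 1.5-fold. The Il4ra probes that differed in detection begin as follows, with the transcript base at which each starts.
Il4ra at base 466: atcccgaggaacagtgccagcactgtgtgt
Il4ra at base 5027: acctgttgggaattccaaccctcaccagtc
They lie at chr7:132712550-132712609 and chr7:132722922-132722981 of mm9, both on the plus strand.

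**Figure D3:**
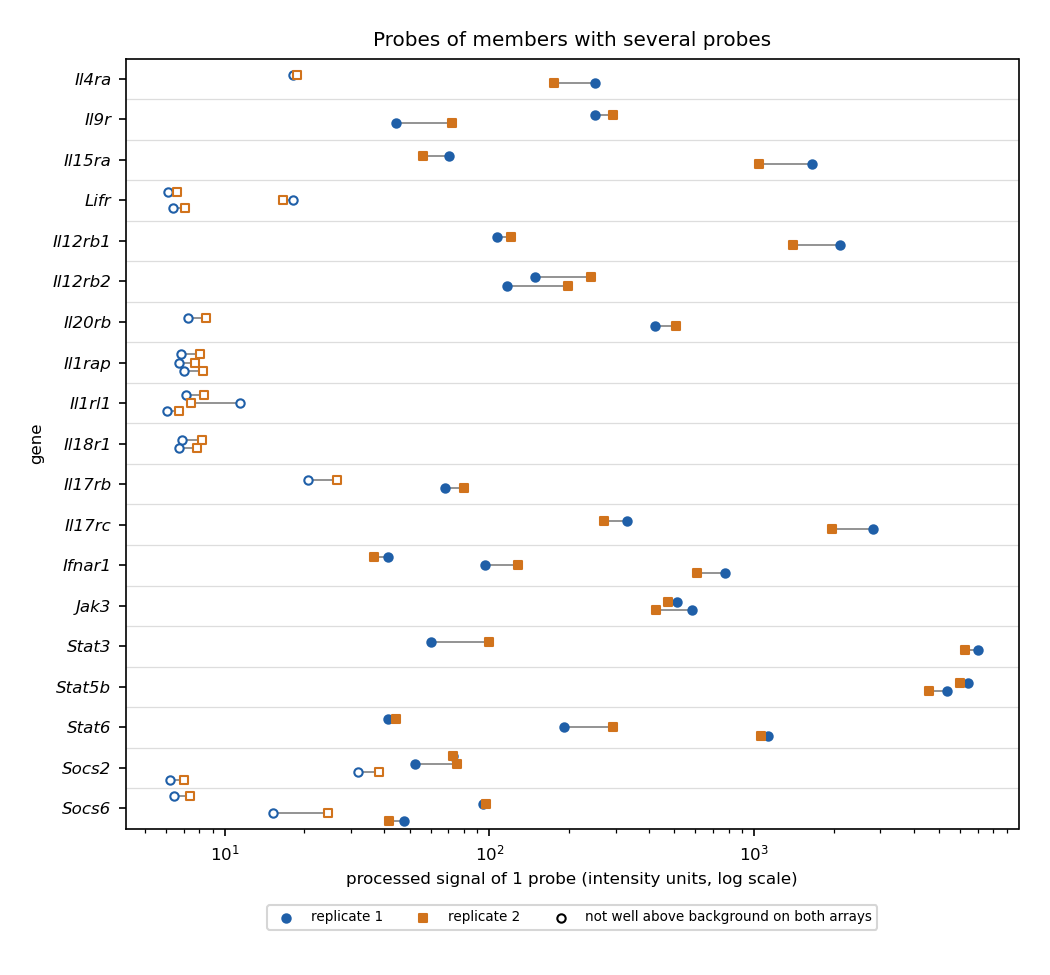
Processed signal (x axis, intensity units, log scale) of each probe of the 19 genes with several probes (y axis), ordered within a gene by position in the transcript, with replicate 1 as circles, replicate 2 as squares and open symbols for probes not detected on both arrays. In Il4ra, Il20rb, Il17rb, Socs2 and Socs6 filled and open symbols occur in 1 gene.

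None of the 41 detected members differed by over 2-fold between the arrays, beside 0.802% of all detected genes (82 of 10221), a share so low that a count of 0 does not set the members apart. The extremes were Il12rb2, 1.76-fold higher on replicate 2, and Il11ra1, 1.73-fold higher on replicate 1. After scaling, 22 members were higher on replicate 2 and 19 on replicate 1. The median SD of the members was 0.22, larger than the 0.11 of all detected genes. The direction depends on the scaling: with the array median subtracted, which moved the median difference of all genes from -0.033 to -0.26, 32 members were higher on replicate 1 and 9 on replicate 2, and Il11ra1 passed 2-fold.

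**Figure D4:**
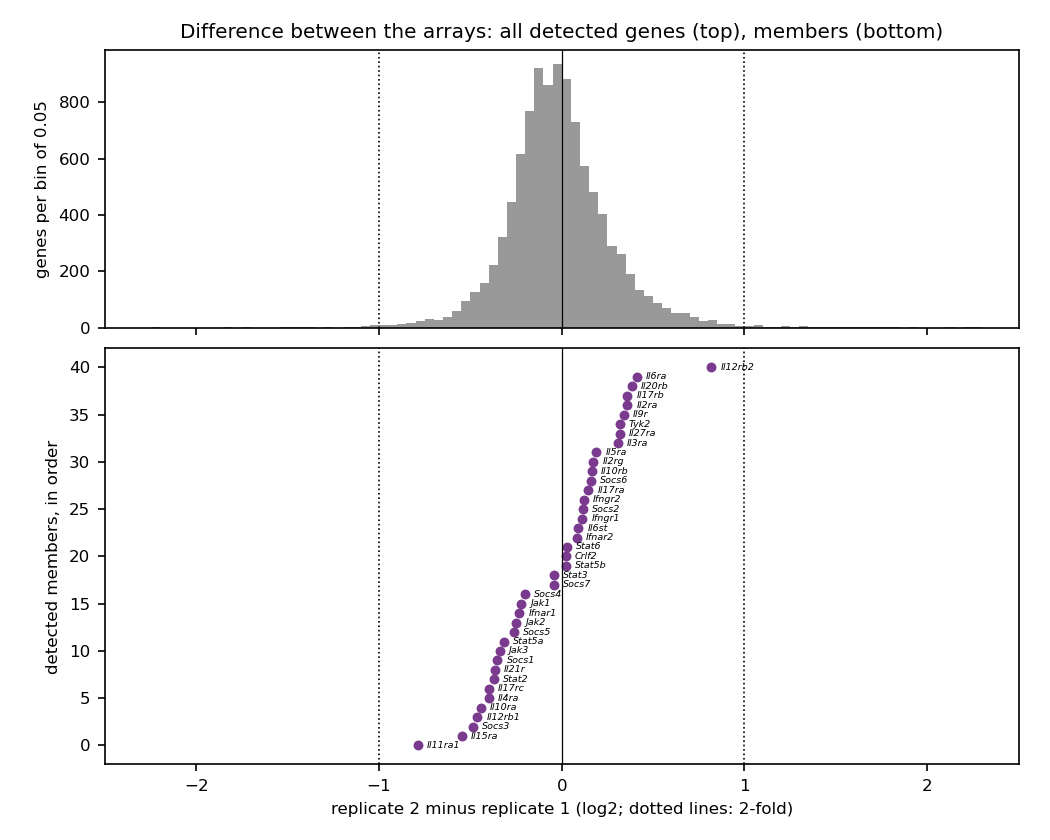
Histogram of the difference between the arrays (x axis, replicate 2 minus replicate 1, log2) for all detected genes in bins (top, y axis as genes per bin) and the same difference for each of the 41 detected members in order (bottom). All members lie inside the dotted lines at 2-fold, from Il11ra1 at -0.79 to Il12rb2 at 0.82.

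Several members are neighbours in the genome and were alike in detection, a pattern noticed after the values were seen. Of all members 73.2% were detected, beside 51.6% of all genes, and how often neighbouring genes agree across the array was not computed. On chr1:40180014-40605788 of mm9, spanning 426 kb, Il1r2, Il1r1, Il1rl1, Il18r1 and Il18rap were all not well above background, as was Il1rl2 between them (6.40 and 7.44 units). The nearest gene before them, Map4k4, was detected (6479 and 5371), and the nearest after them, Slc9a4, was not. On chr16:91394044-91564041, spanning 170.0 kb, Ifnar2, Il10rb, Ifnar1 and Ifngr2 were all detected. There the gene before the group, Olig1, was not well above background, and the gene after it, Tmem50b, was detected (3456 and 3575). Stat5b, Stat5a and Stat3, within 118 kb of chromosome 11, were all detected. The gene before that group, Ghdc, was detected (442.5 and 431), and the gene after it, Atp6v0a1, was not (23.5 and 14.1). Of the pairs, Il2ra with Il15ra and Il4ra with Il21r were both detected, Osmr with Lifr were not, and Il12rb2 was detected with Il23r beside it not.

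**Figure D5:**
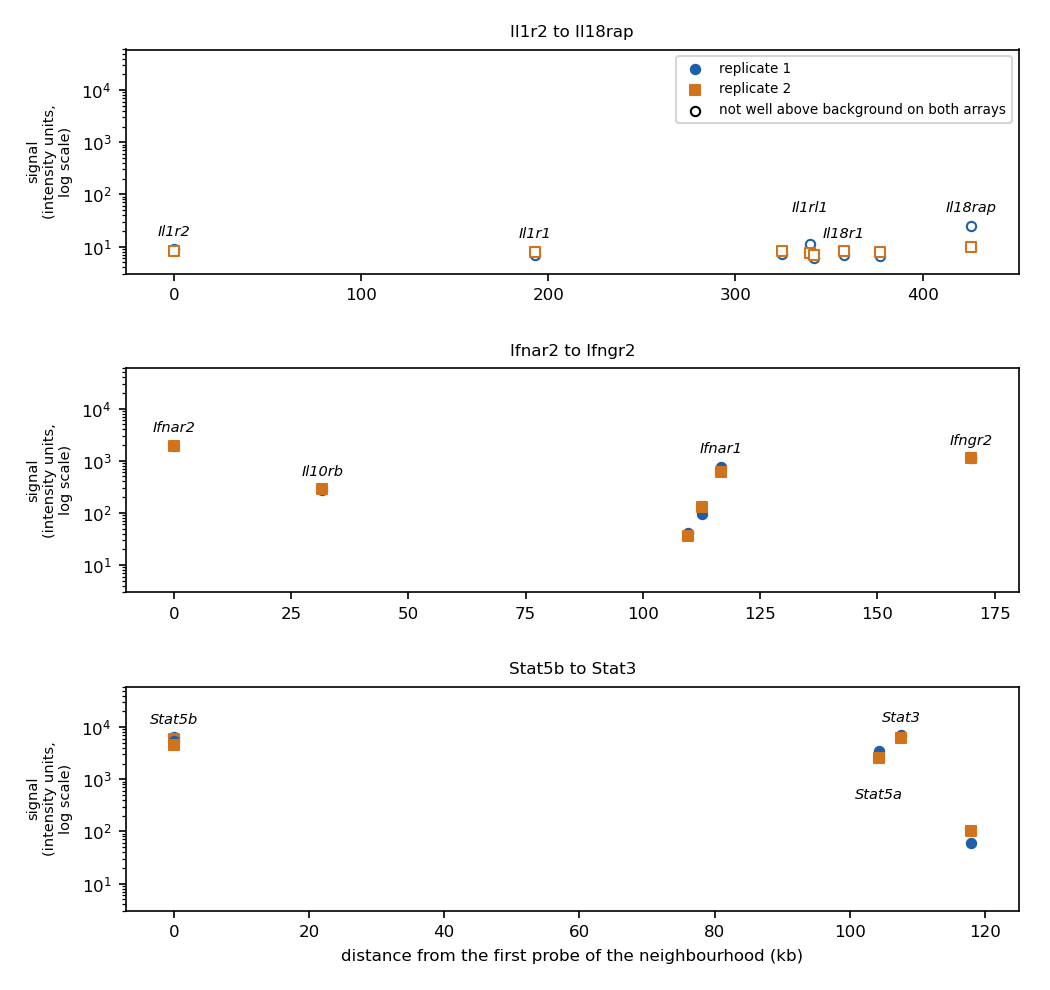
Signal (y axis, intensity units, log scale) of the members' probes in 3 neighbourhoods against the distance from the first probe in kb (x axis), with replicate 1 as circles, replicate 2 as squares and open symbols for probes not detected. The 5 genes from Il1r2 to Il18rap are open throughout, and the genes from Ifnar2 to Ifngr2 and from Stat5b to Stat3 are filled throughout.

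Promoter windows of 250 bases before to 50 after the annotated start were found for 46 of the 56 genes in RefSeq sequence of GRCm38.p6. They were searched on both strands for TTCNNNGAA, the core that STAT factors bind, and GAAA followed after any 2 bases by GAAA, the repeat found in interferon response elements. The first was present in 8 of the 46 members, beside 9.55% of all 27025 genes with a window, and the second in 4, beside 3.99%. The windows of 4 members are shown as examples from genes with opposite calls, since Cish and Il7r were not well above background and Socs3 and Socs1 were detected. Each run is 30 bases, 5′ to 3′ in the direction of the gene, with the matches in capitals (TTCNNNGAA in the first 3, the GAAA repeat in 2 overlapping matches in the last).
Cish: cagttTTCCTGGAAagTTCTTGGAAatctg
Il7r: ggagcTTCAGGGAAtaccaagatgcaggaa
Socs3: cagccTTCTTAGAAgggaggggggggaaag
Socs1: tgccgGAAAGAGAAACCGAAAgcgggggtg
These are chr9:107296654-107296683 (plus strand), chr15:9529994-9530023 (minus), chr11:117969496-117969525 (minus) and chr16:10785595-10785624 (minus) of GRCm38.p6. Of the 8 members with TTCNNNGAA, Il12rb2, Socs3, Ifnar2 and Ifnar1 were detected and Il1r2, Il18r1, Cish and Il7r were not. Of the 4 with the GAAA repeat, Stat2 and Socs1 were detected and Stat4 and Il1rap were not. A match describes the letters of the window, and no binding was measured here.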

How the data were processed

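Per the file headers, the authors' intensity values come from Agilent Feature Extraction 10.5.1.1, which subtracted a spatial background and set surrogate values near background. The detection flags are, per the file headers, other values of 0 or 1 per spot. The authors also deposited a table of log2 values with unstated scale and centring. It followed the log2 scanner signals with slopes of 0.997 and 1.01, and both of its columns had the same median of 5.18. How that common median was set is unknown, and the table served as an alternative.

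Spots marked as outliers were left out (182 and 186, none of a member). Log2 signals of a probe's spots were averaged, and the 75th percentile over all 55681 probes was subtracted. A probe was detected when at least 50% of its spots were well above background on both arrays, and a gene took its brightest detected probe. Signals of different probes were not read as relative amounts of transcript. Promoters and gene names came from RefSeq GRCm38.p6 and probe positions from mm9, without conversion. Python 3.11.15, pandas 2.3.3, numpy 2.4.6 and matplotlib 3.10.9 were used, with R 4.3.3 and limma 3.58.1 for the normexp background (offset 50). The calculation was tested on simulated data. The 2 arrays limit the precision.

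The members and lists were chosen with earlier results of these data known. Named genes are all 56 members, each partner chain of a receptor, of each other list at most the first 4 detected and first 3 not detected in its fixed order, and all genes of a class of 5 or fewer. Alternatives changed the detection rule, scaling, background, probe choice and the array left out.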

Additional observations from a re-analysis of the deposited data

Results flagged for a closer look

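A probe that carries no RefSeq gene name lies 5183 bases from the Il23r probe on the same strand, at chr6:67367783-67367842 of mm9. It read 113 units on replicate 1 and 72.5 on replicate 2 and was well above background on both arrays, whereas the Il23r probe was not on either. It is mentioned because a signal appeared there in data outside the 56 genes, above the median control spot of each array, although on replicate 2 it lay below the highest control spot (101 units). Which transcript it reads was not tested. Within 8 kb and on the same strand, 9 such unnamed probes lie near 6 members, and 3 were detected; the others detected lay near Jak3 (2886 and 1867 units) and Socs2 (35.6 and 48.5).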

How the results depend on the processing

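The count of 41 detected members was between 36 and 44 under every detection rule tried, and the count of 12 complete receptors between 10 and 18. With replicate 1 or 2 left out these were 41 each and 12 to 14. The lowest member count, 36 (64.3%), stood beside 44.7% of all genes with every probe required and 45.8% above the highest control spot. The highest, 44 (78.6%), stood beside 67.3%. The receptors for interleukins 3 and 5 became complete when 1 array sufficed or replicate 1 was left out. Requiring every probe ended the type I interleukin 4 and interleukin 25 receptors (10 complete), and requiring a signal above the highest control spot ended the latter (11). With a positive and significant signal, which 67.3% of all genes passed, 44 members and 18 receptors counted, adding Il2rb, Lifr and Il18rap and the receptors for interleukins 2, 15, 3 and 5 and leukaemia inhibitory factor. The median member value of 1.25 became -2.27 with the percentile over detected probes and 5.24 with the array median, as other zero points give, and 0.81 with the mean of all detected probes. With the normexp background the median was 1.104, but 21 of the 41 member levels moved by over 1 SD, and Il2ra went from -2.31 to -1.55, Il17rb from -2.08 to -1.26 and Socs2 from -2.10 to -1.43, each by over 1.5-fold. With the mean of all detected probes, 10 levels moved. The median was 1.12 and 1.37 with either array left out. The number of members over 2-fold apart became 1 with the array median. No paired analysis was possible because there is only 1 group. Signal over background limits the calls for Il2rb, Lifr, Il18rap and the 5 members under the highest control spot.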

Other observations

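Ligand genes were set beside the receptors, with pairings written down after the values had been seen. The 4 detected ligand genes, Il27, Il10, Il17f and Ifng, were among the 17 whose receptor was complete, and none of the 18 whose receptor was incomplete was detected. Il27 and Ifng alone exceeded the highest control spot of each array. By the less strict flag of a positive and significant signal, 6 of the 17 and 4 of the 18 counted, so the contrast depends on the detection rule. Ebi3, named after its value was seen, encodes the second subunit of interleukin 27 and was not well above background (10.6 and 8.13 units). No test was made on these counts.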
